A study of Mus musculus with 6 samples.

Results

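The MHC class II antigen presentation genes were chosen by symbol: H2-Aa, H2-Ab1 and H2-Eb1 encode surface chains, Cd74 the invariant chain, H2-DMa and H2-DMb1 the peptide editor H2-DM, and Ciita the class II transactivator. These 7 genes were read from a table of 44788 genes. All 7 were among the 19423 genes with enough counts to be tested. RNA from whole ovaries of 8-week-old C57BL/6 J females had been sequenced in 6 libraries, 3 from wild-type (Bnc1+/+) mice and 3 from Bnc1tr/tr mice. Bnc1tr/tr mice are homozygous for a small frameshift deletion in Bnc1, which encodes the zinc finger transcription factor basonuclin 1, and the mutation is present in every cell. The study addressed how this truncation alters the ovary, and its comparisons were made between littermates. The ovaries keep the numbers of their labels here, namely Bnc1+/+ 1, 4 and 7 and Bnc1tr/tr 1, 2 and 3.

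MHC class II molecules carry peptides from taken-up proteins to the cell surface, where CD4+ T cells recognise them. An alpha and a beta chain pair in the endoplasmic reticulum with the invariant chain, which blocks the groove until proteases cut it down in endosomes. H2-DM then removes the remaining fragment and helps stable peptides bind. Dendritic cells, macrophages and B cells make these proteins constitutively, and interferon-gamma can induce them in other cells, including endothelium. In the ovary, macrophages and other leukocytes sit in the stroma, around follicles and in corpora lutea. Ciita binds no DNA itself and acts through factors assembled on the S, X and Y boxes that class II promoters share.

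Sequences around that X and Y pair are shown because these boxes are the known route by which Ciita acts on class II genes. Promoter windows of 250 bases before and 50 after the start were taken from RefSeq (GRCm38.p6), and 4 of the 7 genes had one. Both strands were searched for GNAAC, the leading part of the X box, lying 25 to 40 bases before ATTGG, the Y box, counted from first letter to first letter. The pair was found for H2-Aa, H2-Eb1 and H2-DMb1, and not for H2-DMa, which had 2 windows. H2-Ab1, Cd74 and Ciita had no window in the table. The H2-DMb1 stretch lies before the RefSeq start of that gene but after the GENCODE start used for its coordinates further on, which is upstream of the RefSeq one. Capitals mark the 2 motifs, 5′ to 3′ in the direction of transcription.
H2-Aa, chr17:34287861-34287916, minus strand: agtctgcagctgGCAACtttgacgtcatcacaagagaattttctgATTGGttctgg
H2-Eb1, chr17:34305764-34305818, plus strand: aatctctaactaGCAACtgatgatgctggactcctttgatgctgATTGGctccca
H2-DMb1, chr17:34153085-34153140, plus strand: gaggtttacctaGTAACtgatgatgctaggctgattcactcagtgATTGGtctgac

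The motifs lay 33, 32 and 33 bases apart in these 3 promoters. The same pair stood in 878 of 32851 RefSeq promoter windows (2.67%), and ATTGG alone, on either strand, in 37.4%. Of the other class II chains with a window, 3 of 4 held the pair (H2-Oa, H2-Ob and H2-Eb2), and H2-DMb2 did not. The H2-Ob pair is shown as that of a chain that holds the motifs and did not pass the test. The sign of its difference depended on the ovaries included, as described further on.
H2-Ob, chr17:34238806-34238858, plus strand: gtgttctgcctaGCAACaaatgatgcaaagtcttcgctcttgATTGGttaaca
A match describes these letters only, and no binding was measured.

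The libraries held 25247770 to 34406296 counts each. Replicates differed by more than sampling noise in every pair, so none was counted as a duplicate. Bnc1 itself had 375, 444 and 381 counts in Bnc1+/+ ovaries against 527, 355 and 326 in Bnc1tr/tr. A small deletion can leave the transcript countable, so these values do not check the genotype. A marker of the oviduct, which adjoins the ovary, stood apart in single libraries. Ovgp1, an oviduct glycoprotein, was at 106, 11.7 and 15.1 CPM (counts scaled to library size, after TMM normalization) in Bnc1+/+ ovaries against 1.60, 18.0 and 423 CPM in Bnc1tr/tr. The 13 oviduct and surface epithelium markers, Ovgp1 among them, summed to 547, 399 and 454 CPM in Bnc1+/+ ovaries against 453, 550 and 891 CPM in Bnc1tr/tr. Bnc1+/+ 1 and Bnc1tr/tr 3 were thus the highest of their genotypes by Ovgp1 and by this sum, of which Ovgp1 is a part. They are called oviduct-high here on that basis. The class II genes and the main gene lists are also described without these 2 ovaries.

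All 7 class II genes had lower mean levels in Bnc1tr/tr than in Bnc1+/+ ovaries. The 3 surface chains passed the test, with H2-Aa falling to 49.8% of its Bnc1+/+ mean, H2-Ab1 to 60.0% and H2-Eb1 to 63.1%. The other 4 genes had mean levels at 63.5% to 76.3% of Bnc1+/+ and did not pass. The test was edgeR's quasi-likelihood F test with Benjamini-Hochberg adjustment over all genes tested and a threshold of 0.05. Of the 19423 genes, 1372 passed (7.06%), 813 of them lower (4.19%) and 559 higher (2.88%), against 3 lower and 0 higher of the 7. The median log2 fold change of the 7 genes was -0.65, against 0.018 over all genes tested. A negative log2 fold change was found for 47.4% of all genes tested. The p-values set the genotype difference against the spread between these ovaries, which edgeR estimates with information shared across genes. Littermate relations were not modelled. In whole ovaries, fewer class II-expressing cells and less class II RNA per cell cannot be told apart.

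**Figure D1:**
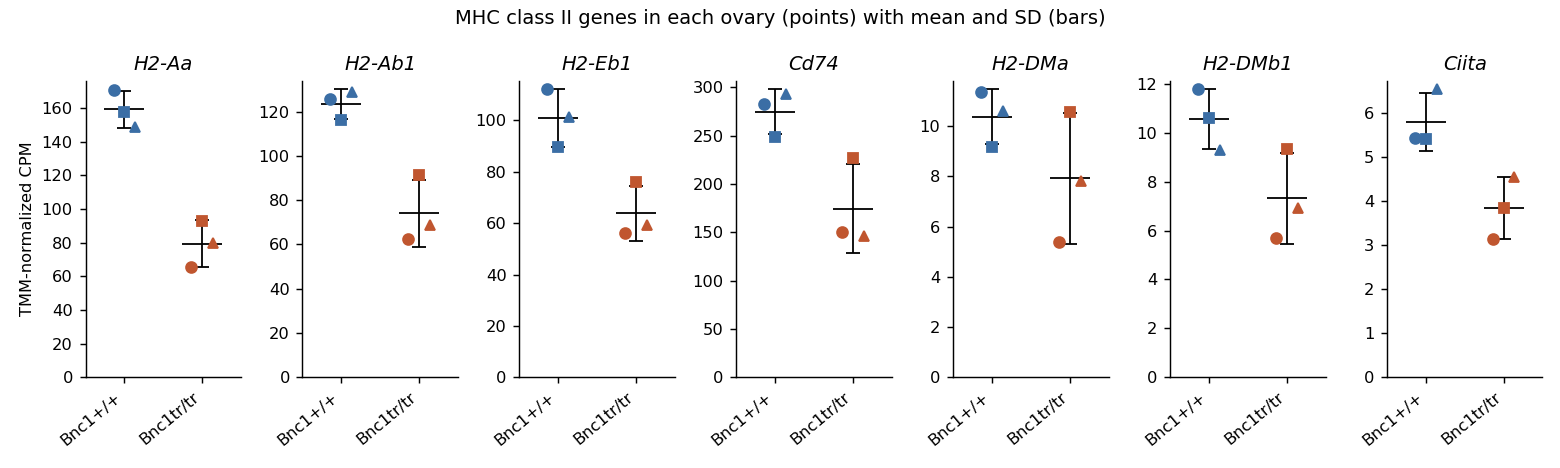
CPM (linear axis from 0) of each class II gene in 3 Bnc1+/+ ovaries (blue) and 3 Bnc1tr/tr ovaries (orange), with the mean (long dash) and SD (error bar); circle, square and triangle stand for Bnc1+/+ 1, 4 and 7 and for Bnc1tr/tr 1, 2 and 3. The genotypes are separate for H2-Aa, H2-Ab1, H2-Eb1, Cd74 and Ciita and overlap for H2-DMa and H2-DMb1.

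H2-Aa encodes the alpha chain of the I-A molecule (ENSMUSG00000036594.15, chr17:34282744-34287823, minus strand, GENCODE M21 on GRCm38). Its level was 171, 158 and 149 CPM in Bnc1+/+ 1, 4 and 7, and 65.3, 93.0 and 79.7 CPM in Bnc1tr/tr 1, 2 and 3. These CPM came from 4320 to 5221 counts in Bnc1+/+ and 1835 to 2417 counts in Bnc1tr/tr libraries. Every Bnc1tr/tr ovary was below every Bnc1+/+ ovary. This was a log2 fold change of -1.004 (SE 0.13, 95% interval -1.31 to -0.69, edgeR adjusted p = 0.00637). The adjusted p lay between 0.00745 and 0.0462 as the 6 ovaries were omitted singly. It was 0.0778 without Bnc1+/+ 1 and Bnc1tr/tr 3 together, with a log2 fold change of -0.96.

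H2-Ab1 encodes the beta chain that pairs with H2-Aa (ENSMUSG00000073421.6, chr17:34257689-34269419, plus strand). It was at 126, 116 and 129 CPM in Bnc1+/+ ovaries against 62.4, 91.2 and 68.7 CPM in Bnc1tr/tr. The genotypes did not overlap, and Bnc1tr/tr 2 lay nearest to Bnc1+/+. The difference was a log2 fold change of -0.74 (SE 0.14, 95% interval -1.07 to -0.41, edgeR adjusted p = 0.0255). This call was lost without Bnc1+/+ 1 (adjusted p = 0.0733 by edgeR), Bnc1+/+ 4 (0.0948), Bnc1+/+ 7 (0.0964) or Bnc1tr/tr 3 (0.0857), and without both oviduct-high ovaries (0.184).

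H2-Eb1 encodes the beta chain of I-E (ENSMUSG00000060586.11, chr17:34305867-34316674, plus strand). It was at 112, 89.7 and 101 CPM in Bnc1+/+ ovaries against 56.0, 76.1 and 59.3 CPM in Bnc1tr/tr. Again no ovary of one genotype reached the range of the other, and Bnc1tr/tr 2 was the highest of the mutants. Its log2 fold change was -0.66 (SE 0.14, 95% interval -0.98 to -0.34, edgeR adjusted p = 0.0327). Leaving out Bnc1+/+ 1, 4 or 7 gave an edgeR adjusted p of 0.0922, 0.0825 or 0.106, and leaving out Bnc1tr/tr 1 or 3 gave 0.0650 or 0.101, so the call was lost each time. It was also lost without both oviduct-high ovaries (adjusted p = 0.226). The pseudogene of the partner alpha chain, H2-Ea-ps, had 0 counts in all 6 libraries. The C57BL/6 strain is known to lack a functional alpha chain of I-E. For H2-Eb1, "surface chain" is thus the name of a gene class here, and no surface protein was measured.

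Cd74 encodes the invariant chain (ENSMUSG00000024610.15, chr18:60803848-60812652, plus strand) and had the most counts of the 7 genes. It was at 283, 248 and 293 CPM in Bnc1+/+ ovaries against 150.3, 227 and 146 CPM in Bnc1tr/tr. The genotypes did not overlap, but Bnc1tr/tr 2 came close to Bnc1+/+ 4. The log2 fold change was -0.65 (SE 0.17, 95% interval -1.06 to -0.25), and the edgeR adjusted p of 0.0659 missed the threshold. Without both oviduct-high ovaries the edgeR adjusted p was 0.318. Cd74 passed with DESeq2 (adjusted p = 0.00499), with edgeR on genes without the low-count filter (0.0381) and without Bnc1tr/tr 2 (0.0118).

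H2-DMa and H2-DMb1 encode the alpha and beta chains of the peptide editor. H2-DMa (ENSMUSG00000037649.10, chr17:34119541-34139101, plus strand) was at 11.4, 9.18 and 10.6 CPM in Bnc1+/+ ovaries against 5.37, 10.6 and 7.82 CPM in Bnc1tr/tr. Bnc1tr/tr 2 lay within the Bnc1+/+ range. The log2 fold change of H2-DMa was -0.39 (SE 0.24, 95% interval -0.94 to 0.16, edgeR adjusted p = 0.365). With single ovaries left out it ranged from -0.65 to -0.17 and did not pass. H2-DMb1 (ENSMUSG00000079547.4, chr17:34153072-34160230, plus strand) was at 11.8, 10.6 and 9.31 CPM in Bnc1+/+ ovaries against 5.69, 9.35 and 6.91 CPM in Bnc1tr/tr. Here too a single mutant ovary, Bnc1tr/tr 2, reached the lowest Bnc1+/+ ovary. The log2 fold change of H2-DMb1 was -0.53 (SE 0.20, 95% interval -0.9995 to -0.0618, edgeR adjusted p = 0.160). The H2-DMa gene model overlaps the first part of Brd2 on the other strand, and H2-DMb1 has a close copy, H2-DMb2, so reads may have been divided between neighbours.

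Ciita encodes the transactivator that class II transcription depends on (ENSMUSG00000022504.10, chr16:10480059-10528418, plus strand). It was at 5.43, 5.41 and 6.55 CPM in Bnc1+/+ ovaries against 3.13, 3.85 and 4.55 CPM in Bnc1tr/tr, from 88 to 190 counts a library. The genotypes did not overlap. On the log2 scale the change was -0.59 (SE 0.20, 95% interval -1.05 to -0.13), and the edgeR adjusted p of 0.120 missed the threshold. It did not pass under any of the 15 alternative settings.

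Groups that did not overlap, lower in Bnc1tr/tr, were thus found for 5 of the 7 genes, against 15.8% of all genes tested. For 6 of the 7 the unadjusted edgeR p was under 0.05, against 12.3% of all genes tested that were lower by that rule. Bnc1tr/tr 2 was the highest mutant ovary for 6 genes, the exception being Ciita, for which Bnc1tr/tr 3 was highest. Bnc1tr/tr 1 was the lowest mutant ovary for 6 genes, the exception being Cd74, for which Bnc1tr/tr 3 was lowest.

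**Figure D2:**
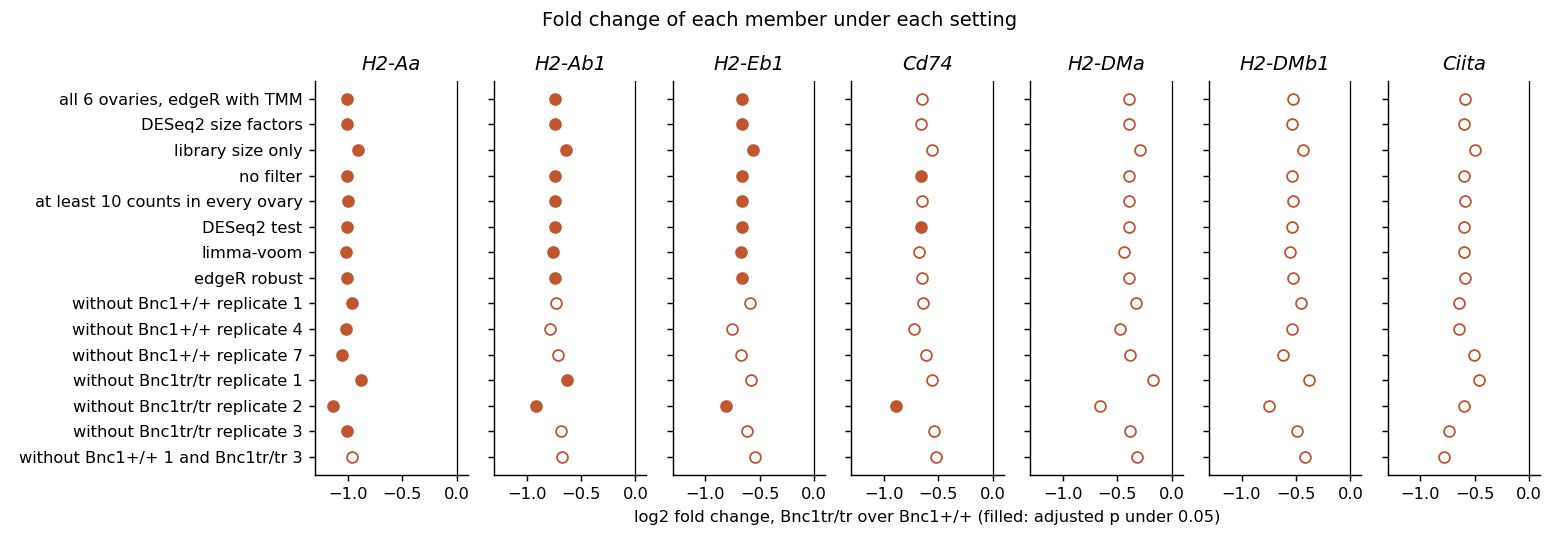
Log2 fold change (Bnc1tr/tr over Bnc1+/+) of each class II gene under 15 settings, one per row; filled points passed an adjusted p of 0.05 and open points did not. All points lie below 0, H2-Aa is open in the bottom row alone (-0.96), and H2-DMa, H2-DMb1 and Ciita are open in every row.

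Levels were compared between genes per length, as CPM per kilobase of merged exons, which can exceed the length of the transcript present. Merged lengths were 3798 bases for H2-Aa, 2568 for H2-Ab1, 1944 for H2-Eb1, 3448 for H2-DMa and 1681 for H2-DMb1. By CPM alone the surface chains stood in the reverse order (Bnc1+/+ means 159, 123.5 and 101 for H2-Aa, H2-Ab1 and H2-Eb1). H2-DMa and H2-DMb1 were alike (10.4 and 10.6). The order within these groups thus rests on the lengths used. In Bnc1+/+ ovaries the order was Cd74 (164 ± 13.9, SD, n = 3), H2-Eb1 (52.0 ± 5.80), H2-Ab1 (48.1 ± 2.61), H2-Aa (41.9 ± 2.89), H2-DMb1 (6.29 ± 0.736), H2-DMa (3.01 ± 0.322) and Ciita (0.608 ± 0.0687). The invariant chain thus stood above the surface chains, and these above the editor and the transactivator. H2-Eb1 and H2-Ab1 overlapped in level between ovaries, while each other neighbouring pair in this order was separate, H2-Ab1 and H2-Aa only narrowly (lowest 45.2 and highest 45.0). In Bnc1tr/tr ovaries the order was the same, from 104 ± 27.2 CPM per kilobase for Cd74 and 32.8 ± 5.55 for H2-Eb1 to 28.9 ± 5.90 for H2-Ab1 and 20.9 ± 3.66 for H2-Aa. There H2-Aa also overlapped with H2-Ab1. H2-DMb1 (4.35 ± 1.11), H2-DMa (2.30 ± 0.757) and Ciita (0.403 ± 0.0743) were separate from one another.

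The ratios of the genes to each other were taken within each ovary, from CPM, so that only their change between ovaries carries meaning. The ratio of H2-Aa to H2-Eb1 was 1.52, 1.76 and 1.47 in Bnc1+/+ ovaries against 1.17, 1.22 and 1.34 in Bnc1tr/tr. These values did not overlap (exact two-sided permutation p = 0.1, the smallest that 3 ovaries against 3 allow, so the design cannot reach 0.05; 0.467 after adjustment over 7 ratios). The ratio of H2-Aa to its partner H2-Ab1 averaged 1.29 ± 0.116 for the 3 Bnc1+/+ ovaries and 1.08 ± 0.0753 for the 3 mutants (SD, n = 3, exact permutation p = 0.2), and the ranges met. H2-Eb1 to Cd74 was 0.368 ± 0.0257 and 0.371 ± 0.0355 (SD, n = 3, exact permutation p = 0.9). The other 4 ratios overlapped as well.

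The rest of the class II region on chromosome 17 held 11 further genes that were looked up, of which 9 were tested and 1 was lower. Tap1 (chr17:34187553-34197225, plus strand), a subunit of the transporter that loads class I molecules, was at 46.7, 41.7 and 39.6 CPM in Bnc1+/+ ovaries against 29.6, 32.3 and 28.4 CPM in Bnc1tr/tr. Its log2 fold change was -0.50 (SE 0.10, edgeR adjusted p = 0.0265), and the groups did not overlap. The call was lost without Bnc1+/+ 1 (adjusted p = 0.0770), Bnc1+/+ 4 (0.105), Bnc1+/+ 7 (0.0536), Bnc1tr/tr 1 (0.0547) or Bnc1tr/tr 3 (0.0945). The models of Tap1 and Psmb9 overlap at their starts, on opposite strands. The neighbouring Tap2 (log2 fold change -0.31), Psmb8 (-0.23) and Psmb9 (-0.21), the last a pair of immunoproteasome subunits, did not pass. With single ovaries left out, the Tap2 value ranged from -0.42 to -0.17 and that of Psmb8 from -0.34 to -0.013. Brd2, a bromodomain gene beside H2-DMa, averaged 349 CPM in Bnc1+/+ ovaries against 356 in Bnc1tr/tr (log2 fold change 0.03). Btnl2, at the far end, had a log2 fold change of 0.55 (adjusted p = 0.416).

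Among the other class II chains, 3 of 5 were tested and edgeR called 0 of them, with 0 at an unadjusted p under 0.05 and 0 by DESeq2 or limma-voom. H2-Oa and H2-Ob encode H2-O, which restrains H2-DM and is typical of B cells. H2-Oa had 51, 65 and 25 counts in Bnc1+/+ ovaries against 47, 48 and 64 in Bnc1tr/tr (log2 fold change 0.29, SE 0.34). H2-Ob had 35, 17 and 32 counts in Bnc1+/+ ovaries against 8, 32 and 92 in Bnc1tr/tr (log2 fold change 0.72, SE 0.74). The high value was Bnc1tr/tr 3, without which the log2 fold change was -0.36. H2-DMb2 had 11 to 41 counts a library (log2 fold change -0.58, SE 0.41), and H2-Eb2, with 2 to 8 counts, was not tested. At these counts the intervals of H2-Ob (-1.01 to 2.44) and H2-DMb2 (-1.52 to 0.36) take in both no difference and the sizes seen for the surface chains. That of H2-Oa (-0.51 to 1.09) takes in no difference but lies above the log2 fold changes of all 3 surface chains.

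**Figure D3:**
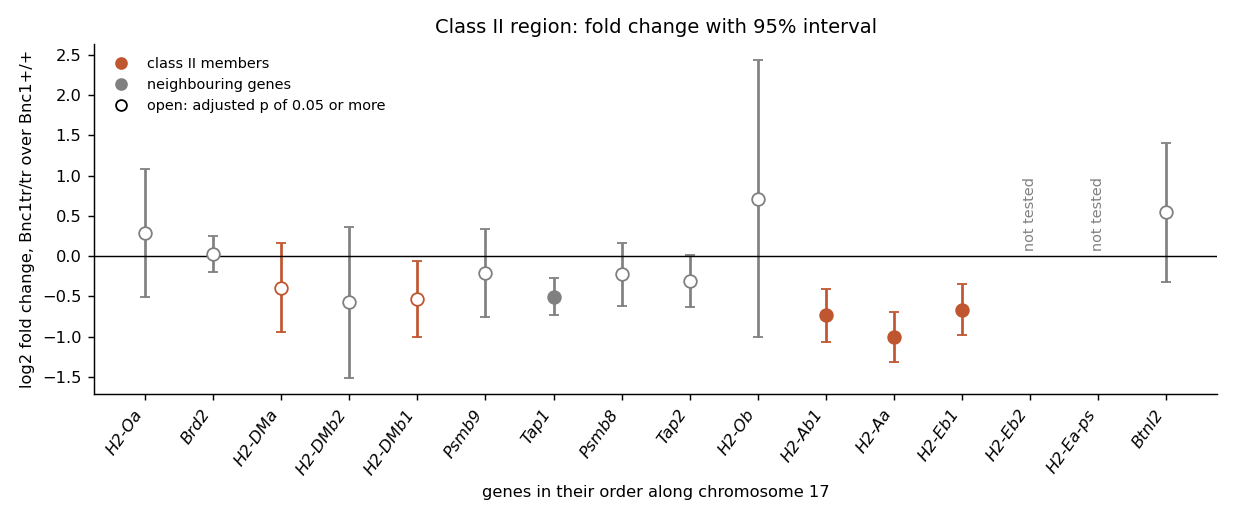
Log2 fold change (Bnc1tr/tr over Bnc1+/+) with its 95% interval for the genes of the class II region in their order along the chromosome, members in orange and neighbours in grey; spacing shows order, not distance. H2-Ab1, H2-Aa, H2-Eb1 and Tap1 are filled (adjusted p under 0.05), while Brd2, H2-Oa, H2-Ob and Btnl2 are open and lie at or above 0.

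The machinery that prepares peptides and moves class II molecules showed 1 gene lower and 0 higher of 15 tested by edgeR, with a median log2 fold change of -0.13. The one that fell was Cd63, a tetraspanin of late endosomes, at 116, 130.3 and 125 CPM in Bnc1+/+ ovaries against 75.7, 91.2 and 85.1 CPM in Bnc1tr/tr (log2 fold change -0.56, SE 0.10, edgeR adjusted p = 0.0159). That call was lost without Bnc1+/+ 4 (0.0934), Bnc1+/+ 7 (0.0665) or Bnc1tr/tr 3 (0.0557), as edgeR adjusted p. The protease genes did not pass by edgeR with all ovaries, but some passed otherwise. Lgmn, an asparaginyl endopeptidase, had a log2 fold change of -1.01 (SE 0.29, edgeR adjusted p = 0.0818) and groups that did not overlap. It passed with DESeq2 (adjusted p = 0.00279), with edgeR without the low-count filter (0.0427) and without Bnc1+/+ 1 (0.0487). Ctss, which makes the last cut in the invariant chain, had a log2 fold change of -0.30 (SE 0.20, edgeR adjusted p = 0.411), and without Bnc1tr/tr 2 of -0.60 (0.0315). The aspartic protease Ctsd passed with DESeq2 (adjusted p = 0.0302) and with edgeR without Bnc1tr/tr 2 (0.0297). DESeq2 thus called 3 of the 15 lower. In the other direction, the cathepsin inhibitor Cst3 was higher by edgeR without Bnc1tr/tr 1 (log2 fold change 0.48, adjusted p = 0.0388). These proteases are also used outside antigen presentation.

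Of 15 genes of the class II transcription machinery, edgeR called 1 lower and 0 higher (median log2 fold change 0.077). Rfxank, a subunit of the RFX complex that binds the X box, was at 56.3, 58.5 and 51.0 CPM in Bnc1+/+ ovaries against 33.2, 39.9 and 36.6 CPM in Bnc1tr/tr. The groups were far apart relative to their spread, and the log2 fold change was -0.60 (SE 0.10, edgeR adjusted p = 0.0146). It missed the threshold without Bnc1+/+ 1 (adjusted p = 0.0509), Bnc1+/+ 4 (0.0876) or Bnc1tr/tr 3 (0.0531). Its partners in the complex had log2 fold changes of 0.00 for Rfx5 (SE 0.12) and 0.08 for Rfxap (SE 0.10). Nfya, a subunit of the factor that binds the Y box, had a log2 fold change of 0.32 (SE 0.09, edgeR adjusted p = 0.0758). It was higher with DESeq2 (adjusted p = 0.0316), with edgeR scaled by library size alone (0.0340) and without Bnc1tr/tr 2 (0.0474).

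Genes of interferon-gamma signalling and its targets gave 1 lower and 0 higher of 18 tested by edgeR, with a median log2 fold change of 0.058. Cxcl9, a T cell chemokine, was at 2.45, 2.87 and 1.55 CPM in Bnc1+/+ ovaries against 0.818, 0.962 and 0.388 CPM in Bnc1tr/tr (log2 fold change -1.67, SE 0.39, edgeR adjusted p = 0.0461). The genotypes did not overlap. The Cxcl9 call was lost whichever of the 6 ovaries was left out (edgeR adjusted p from 0.0578 to 0.182). Irf1, which interferon-gamma induces and which acts on a Ciita promoter, had a log2 fold change of the other sign, 0.36 (SE 0.09, edgeR adjusted p = 0.0507). Irf1 was higher with DESeq2 (adjusted p = 0.0110), with edgeR's robust fit (0.0461), with DESeq2 size factors (0.0498) and with library size alone (0.0225). DESeq2 also called Gbp4, a guanylate-binding protein, lower (adjusted p = 0.0146). Ifng itself had 0 to 4 counts a library and was not tested.

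Class I presentation had 1 gene lower (Tap1, above) and 0 higher of 18 by edgeR, with a median log2 fold change of -0.22. That median was -0.059 without Bnc1+/+ 1 and -0.056 without both oviduct-high ovaries. H2-K1, a class I heavy chain, was at 780 CPM in Bnc1+/+ 1 against 403 and 362 CPM in Bnc1+/+ 4 and 7. Among costimulators and ligands of CD4, edgeR called 1 of 7 lower and 0 higher. The one that fell was Cd83, a surface protein of activated antigen-presenting cells that also holds class II at the surface, at 10.3, 13.8 and 19.3 CPM in Bnc1+/+ ovaries against 7.68, 7.93 and 5.96 CPM in Bnc1tr/tr (log2 fold change -1.01, SE 0.24, edgeR adjusted p = 0.0454). The Cd83 call was lost with limma-voom (adjusted p = 0.0604), with library size alone (0.0553) and without Bnc1+/+ 4 (0.147), Bnc1+/+ 7 (0.120) or any 1 of the mutant ovaries 1, 2 and 3 (0.0808, 0.0719 and 0.128). Icosl, the ligand of the T cell costimulator ICOS, was at 44.5, 44.8 and 39.1 CPM in Bnc1+/+ ovaries against 98.5, 55.2 and 59.8 CPM in Bnc1tr/tr, with no overlap. Its log2 fold change of 0.73 (SE 0.21) missed the threshold (edgeR adjusted p = 0.0799), but passed with DESeq2 (0.00880), without the low-count filter (0.0489) and with library size alone (0.0490). Without both oviduct-high ovaries none of Tap1, Cd63, Rfxank, Cxcl9 and Cd83 passed by edgeR (adjusted p from 0.0781 for Cd83 to 0.224 for Tap1), with log2 fold changes from -1.32 for Cxcl9 to -0.40 for Tap1.

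**Figure D4:**
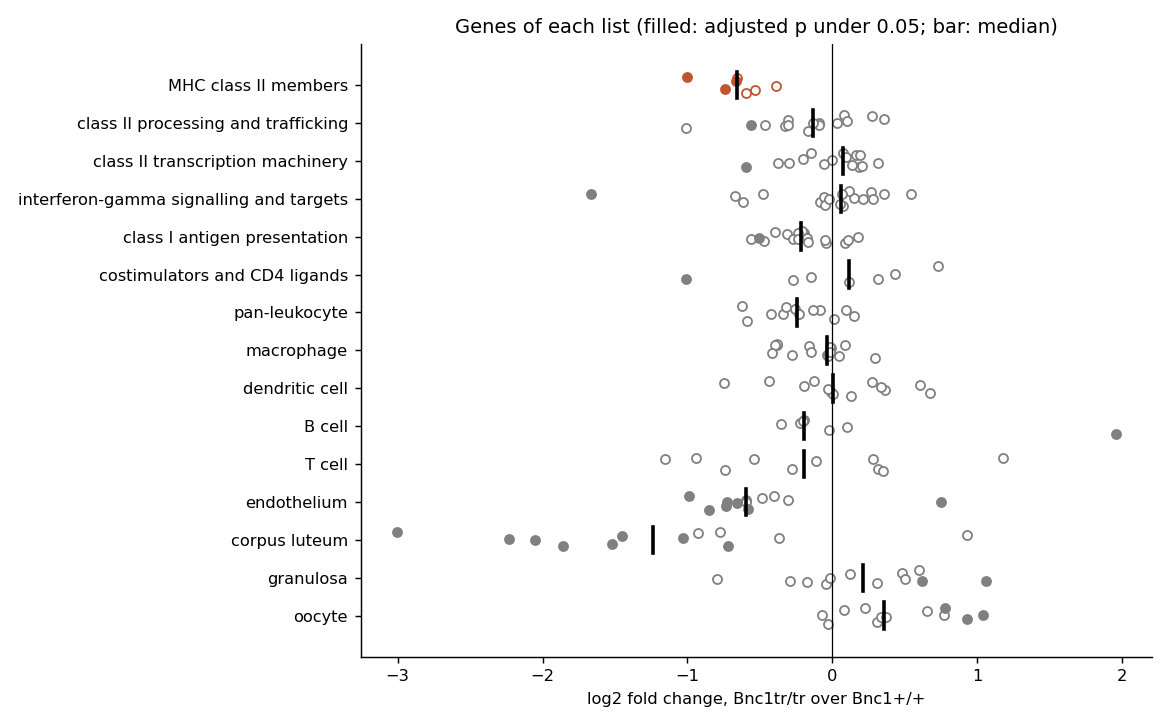
Log2 fold change (Bnc1tr/tr over Bnc1+/+) of each tested gene in the class II group and in lists of related genes and cell markers; filled points passed an adjusted p of 0.05, black bars are medians, and the vertical scatter within a row has no meaning. The class II genes lie between -1.004 and -0.39, and the medians of the leukocyte, macrophage, dendritic, B and T cell lists lie between -0.24 and 0.0030; without Bnc1tr/tr 2, which is drawn here, those of the leukocyte, macrophage and T cell lists were -0.52, -0.48 and -0.765.

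Leukocyte markers were read beside the class II genes because leukocytes are their main source. None of 12 pan-leukocyte markers passed by edgeR, with 2 at an unadjusted p under 0.05, 1 lower by DESeq2 and 0 by limma-voom (median log2 fold change -0.24). Their summed level was 219 to 248 CPM in Bnc1+/+ ovaries against 167 to 262 CPM in Bnc1tr/tr, which overlapped. Ptprc, the leukocyte surface phosphatase CD45, had a log2 fold change of -0.59 with a wide interval (-1.31 to 0.14, edgeR adjusted p = 0.301). Without Bnc1tr/tr 2 it passed, at -1.03 (adjusted p = 0.0385), and 8 of the 12 markers had an unadjusted p under 0.05, with a median of -0.52. For fits with ovaries left out, the share of all genes at that unadjusted p was not counted, so such counts only describe. Without Bnc1tr/tr 1 the median was -0.067, with 1 marker at an unadjusted p under 0.05. The DESeq2 call was Rac2, a small GTPase of blood cells (log2 fold change -0.62). Of 15 macrophage markers 0 passed by edgeR, DESeq2 or limma-voom, and 1 had an unadjusted p under 0.05. They summed to 675 to 721 CPM in Bnc1+/+ ovaries against 501 to 909 CPM in Bnc1tr/tr. Bnc1tr/tr 2 was the highest of the mutants, as for most class II genes, but for this sum it also exceeded every Bnc1+/+ ovary. Emr1 (Adgre1, F4/80) had a log2 fold change of -0.38 (SE 0.21), as did Csf1r, the receptor that macrophages need to survive (-0.38, SE 0.16), neither passing (edgeR adjusted p = 0.314 and 0.189). The macrophage result also rested on Bnc1tr/tr 2. Without that ovary edgeR called 2 of the 15 lower, Csf1r (log2 fold change -0.58, adjusted p = 0.0256) and the complement gene C1qc (-0.79, 0.0297), 8 had an unadjusted p under 0.05, and the median moved from -0.039 to -0.48. With both oviduct-high ovaries left out instead, edgeR called 0 pan-leukocyte and 0 macrophage markers, with 0 and 1 at an unadjusted p under 0.05 and medians of -0.18 and 0.033.

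Of 13 dendritic cell markers tested, 0 passed by edgeR or limma-voom and 1, Fscn1, was higher by DESeq2, with 2 at an unadjusted edgeR p under 0.05. Fscn1, which encodes an actin-bundling protein, was also higher by edgeR without Bnc1tr/tr 1 (log2 fold change 0.80, adjusted p = 0.00513) and with library size alone (0.0490). Itgax (CD11c) had a log2 fold change of -0.01 (SE 0.20), and Zbtb46, a transcription factor of classical dendritic cells that endothelium also expresses, -0.19 (SE 0.08, edgeR adjusted p = 0.209). Among B cell markers, Cd79a was sparse, with 23 to 45 counts a library (log2 fold change 0.10). In the B cell list 0 of 7 were lower and 1 was higher, Pax5 (log2 fold change 1.96, edgeR adjusted p = 0.0194, 8 to 48 counts). The Pax5 call was lost without Bnc1+/+ 4 (adjusted p = 0.116), Bnc1+/+ 7 (0.0937) or Bnc1tr/tr 3 (0.0682), and without both oviduct-high ovaries (0.104). T cell markers gave 0 of 10 by edgeR, DESeq2 and limma-voom, with 2 at an unadjusted edgeR p under 0.05, and Cd3e had 6 to 22 counts (log2 fold change -0.74, edgeR adjusted p = 0.299). Of the 10 T cell genes tested, 4 had a positive log2 fold change (Il7r 1.18, Cd5 0.35, Cd4 0.32 and Cd247 0.28), and the pair under an unadjusted 0.05 went opposite ways, Cd3d at -1.16 and Il7r at 1.18. The T cell median of -0.20 became -0.765 without Bnc1tr/tr 2, with 12 genes then tested and 5 at an unadjusted p under 0.05. The chains of the CD8 co-receptor, Cd8a and Cd8b1, had too few counts to be tested but did not overlap. Cd8a had 37, 22 and 8 counts in Bnc1+/+ ovaries against 5, 2 and 7 in Bnc1tr/tr, and Cd8b1 36, 15 and 10 against 3, 1 and 4. Without the low-count filter edgeR called Cd8b1 lower (adjusted p = 0.0368). Without both oviduct-high ovaries edgeR called 0 dendritic, 0 B and 0 T cell markers, with 0, 1 and 1 at an unadjusted p under 0.05 and medians of 0.080, -0.057 and 0.21. Of the granulocyte list only 2 genes were tested and Mpo was higher, at 4 to 10 counts in Bnc1+/+ ovaries against 74 to 144 in Bnc1tr/tr. Natural killer and mast cell markers gave 0 of 7 by edgeR and limma-voom and 1 higher by DESeq2, with 3 at an unadjusted edgeR p under 0.05. The DESeq2 call was Kit (log2 fold change 0.92), a receptor that oocytes also express, at 42.7 to 52.5 CPM in Bnc1+/+ ovaries against 67.1 to 131 CPM in Bnc1tr/tr. The other 6 tested genes of that list were at most 2.96 CPM in any ovary, among them the mast cell proteases Cpa3 (log2 fold change 1.22) and Tpsb2 (log2 fold change 1.08), whose groups did not overlap.

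Each class II gene was also set against the mean log2 CPM of the markers in the same ovary. Relative to pan-leukocyte markers, H2-Aa was lower by a log2 difference of -0.76, H2-Ab1 of -0.49, Cd74 of -0.42, H2-Eb1 of -0.41 and H2-DMb1 of -0.29. For these 5 genes the genotypes did not overlap (exact two-sided permutation p = 0.1 each, the smallest possible with 3 against 3). After adjustment over the 7 genes this exact permutation p was 0.14 each. On this scale 3.71% of all genes tested were lower without overlap. H2-DMa (-0.18) and Ciita (-0.34) overlapped, and without Bnc1tr/tr 2 the Ciita difference was -0.14. Relative to macrophage markers the same 5 genes were separate and the same 2 overlapped, with H2-Aa at -0.85, against 4.81% of all genes tested lower without overlap. Without Bnc1tr/tr 2 the difference for H2-Aa was -0.67 relative to pan-leukocyte and -0.76 relative to macrophage markers, and for Ciita the latter moved from -0.43 to -0.23. The marker means themselves overlapped between genotypes, with differences of -0.26 for pan-leukocyte and -0.17 for macrophage markers (exact permutation p = 0.4 for both), and of -0.47 and -0.38 without Bnc1tr/tr 2.

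Endothelial markers mostly had negative log2 fold changes (11 of 12), as the class II genes did, but not all of these passed. Of 12 tested, 6 were lower and 1 higher by edgeR, and their sum was 1093 to 1442 CPM in Bnc1+/+ ovaries against 762 to 894 CPM in Bnc1tr/tr, without overlap. The number lower was 3 without Bnc1+/+ 4 and 4 to 7 without any other single ovary. Kdr, a VEGF receptor, had a log2 fold change of -0.66, Flt1, another, of -0.99, and Pecam1, a junction protein, of -0.85. The one that was higher was Vwf, von Willebrand factor, at 21.5, 15.9 and 18.9 CPM in Bnc1+/+ ovaries against 31.7, 37.9 and 25.3 CPM in Bnc1tr/tr (log2 fold change 0.75, SE 0.17, edgeR adjusted p = 0.0415). The Vwf call was lost on leaving out any single ovary other than Bnc1tr/tr 3 (adjusted p from 0.0634 to 0.167) and without both oviduct-high ovaries (0.0547). Without both oviduct-high ovaries 1 of the 12 was lower by edgeR and 11 had an unadjusted p under 0.05, with a median log2 fold change of -0.71 against -0.60 in all ovaries. Relative to endothelial markers, H2-Aa alone was separate between genotypes (log2 difference -0.51, exact permutation p = 0.1, 0.7 after adjustment over the 7 genes). On this scale 2.49% of all genes tested were lower without overlap. The other 6 overlapped, with differences between -0.24 for H2-Ab1 and 0.07 for H2-DMa. Without Bnc1tr/tr 2 these differences were larger for Cd74 (-0.34, from -0.17), H2-Ab1 (-0.36), H2-Eb1 (-0.25) and H2-DMb1 (-0.20, from -0.043), and that of H2-DMa turned to -0.12. H2-Aa was then at -0.59 and Ciita at -0.063. The part of endothelium in the class II result was not tested.

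**Figure D5:**
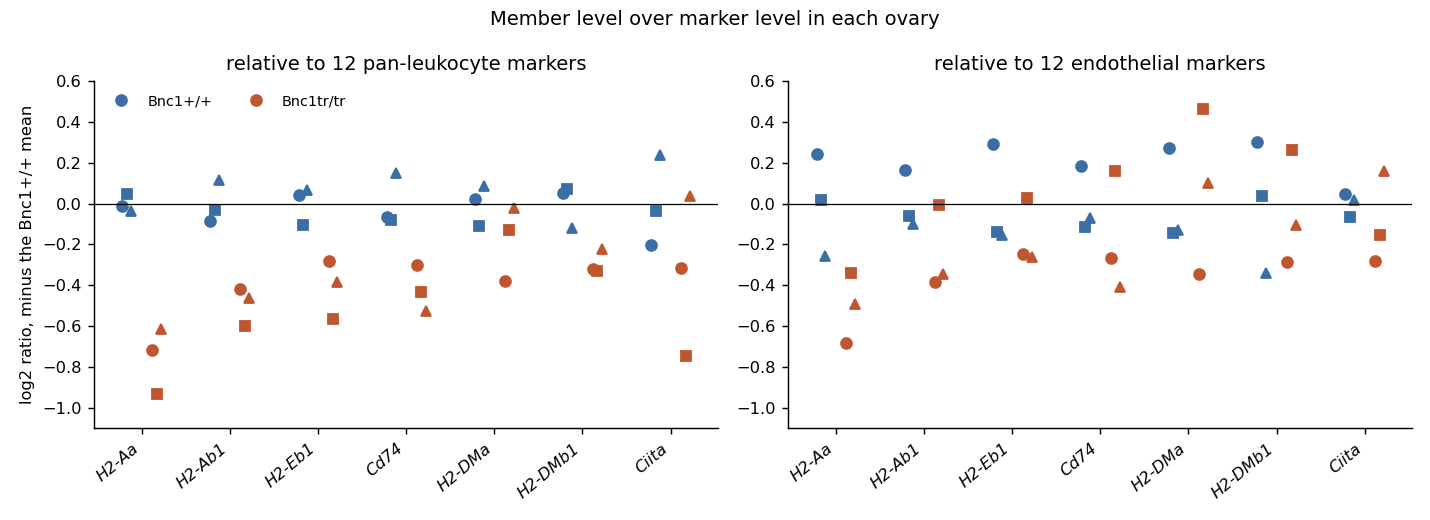
Log2 ratio of each class II gene to the mean of 12 pan-leukocyte (left) or 12 endothelial markers (right) in each ovary, with the Bnc1+/+ mean of each gene set to 0; blue is Bnc1+/+ and orange Bnc1tr/tr, with symbols for ovaries as circle, square and triangle in label order. On the left all Bnc1tr/tr points of 5 genes lie below all Bnc1+/+ points, and on the right this holds for H2-Aa alone.

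Markers of the ovarian compartments went in different directions by list. Corpus luteum markers were lower for 8 of 12 and higher for 0, with a median log2 fold change of -1.24, and their sum was 23456 to 27260 CPM in Bnc1+/+ ovaries against 7192 to 12972 CPM in Bnc1tr/tr. The number lower was 4, 2, 3 and 4 without Bnc1+/+ 1, Bnc1+/+ 4, Bnc1+/+ 7 and Bnc1tr/tr 3, and 3 without both oviduct-high ovaries (median -1.38). Lhcgr, the luteinizing hormone receptor, had a log2 fold change of -3.01 and Scarb1, which takes up HDL cholesterol, of -1.86. Of the oocyte markers 3 of 12 were higher (Gdf9, Bmp15 and Oosp1, log2 fold changes 0.78, 0.93 and 1.04), and of the granulosa markers 2 of 12 (Amh 1.06 and Amhr2 0.62). Theca and stroma markers gave 2 lower (Star and Cyp11a1, both also in the corpus luteum list) and 1 higher (Nr2f2). These counts changed as single ovaries were left out. Oocyte markers that were higher by edgeR numbered 0 without Bnc1+/+ 4, Bnc1+/+ 7 or Bnc1tr/tr 3, 1 without Bnc1+/+ 1 or Bnc1tr/tr 1, and 5 without Bnc1tr/tr 2. Granulosa markers that were higher numbered 4 without Bnc1tr/tr 2 and 1 without any other single ovary. Among these, Amhr2 passed in 6 of the 6 fits, Bmp15, Oosp1, Star and Cyp11a1 in 2, and Gdf9, Amh and Nr2f2 in 1. Oviduct and surface epithelium markers gave 0 of 13 by edgeR and limma-voom and 1 higher by DESeq2, with 2 at an unadjusted edgeR p under 0.05. Without both oviduct-high ovaries 0 oocyte, 0 granulosa and 0 theca and stroma markers passed by edgeR, with 5, 4 and 5 at an unadjusted p under 0.05. The part of these tissue differences in the class II result was not tested.

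The genes most like the class II genes were found by Pearson's r of log2 CPM with the mean of H2-Aa, H2-Ab1, H2-Eb1 and Cd74 over the 6 ovaries. This describes 6 points in 2 groups and shares library depth, so it carries no p. Among 16753 genes, 858 had an r over 0.9. Outside the 4 genes that made the mean, the 10 highest were Cyp4f18 (0.996), Gm16407, Tmem173, 4732471J01Rik, Dpp3, Apbb2, 2700046G09Rik, Pik3ap1, Gap43 and Lasp1 (0.992). Their choice by this correlation also fixes how they order the ovaries, so nothing is read from their direction. By edgeR 6 of them were lower, and none of the 6 passed in every fit. With the 6 ovaries left out singly, Pik3ap1 passed in 3 fits, Apbb2 in 2 and Cyp4f18, Gm16407, Tmem173 and Gap43 in 1 each, that without Bnc1tr/tr 2, and none passed without both oviduct-high ovaries (edgeR adjusted p from 0.116 for Pik3ap1 to 0.254 for Cyp4f18). Cyp4f18, a fatty acid hydroxylase, was at 6.43, 4.89 and 5.62 CPM in Bnc1+/+ ovaries against 1.99, 3.54 and 2.47 CPM in Bnc1tr/tr (log2 fold change -1.08, SE 0.25). Pik3ap1, a signalling adaptor of B cells and macrophages, was at 37.4, 35.7 and 41.6 CPM against 14.3, 23.5 and 15.3 CPM (log2 fold change -1.11, SE 0.19). Tmem173, the innate DNA-sensing adaptor STING, had a log2 fold change of -0.59, Apbb2 of -0.62, Gm16407 of -1.24 and Gap43 of -1.68. H2-DMb1 (r = 0.929), H2-DMa (0.843) and Ciita (0.839) followed the mean less closely.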

How the data were processed

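Ovary RNA was extracted with TRIzol, and single-end cDNA libraries were sequenced on an Ion Proton. The authors deposited whole-number read counts per gene for all 6 ovaries, with no normalization. The submitters' processing notes name the builds mm10 and, with no role given, Sscrofa10.2. The aligner, the counter, its annotation and its use of strand are not given in the sources used here.

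Counts were analysed in R 4.3.3 with edgeR 4.0.16: filterByExpr (minimum count 10), TMM normalization, quasi-likelihood F test of genotype with no covariates, two-sided, Benjamini-Hochberg over 19423 genes, threshold 0.05. Scripts were tested on simulated data. The alternatives were other normalizations, filters, DESeq2 1.42.0, limma-voom (limma 3.58.1), a fold threshold and leaving out each ovary. Leaving out both oviduct-high ovaries was chosen after seeing the data. Intervals are 95%. Log2 CPM used a prior count of 2. Depth was 25247770 to 34406296 counts per library.

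The members and gene lists were chosen with earlier results of these data known. Named genes were all members, the other class II chains and region neighbours, up to 5 called genes per list, fixed defining markers and the 10 genes most like the members. Other list genes that edgeR did not call with all ovaries (such as Lgmn, Irf1, Nfya, Icosl, Fscn1, C1qc and Cd8a) were named after their values were seen. Names the table lacked were matched by synonym for 3 of 250 symbols (Adgre1 is Emr1). Some genes of the lists are not reported here and were left out of the list counts. Coordinates and exon lengths came from GENCODE M21 (GRCm38).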

Additional observations from a re-analysis of the deposited data

How the results depend on the processing

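All 7 class II genes kept a negative log2 fold change under all 15 alternatives, and the median over the 7 ranged from -0.81 to -0.54. H2-Aa passed in 14 of the 15, H2-Ab1 in 9, H2-Eb1 in 8, Cd74 in 3, and Ciita, H2-DMa and H2-DMb1 in 0. The number of the 7 that passed was 3 with all ovaries, 1 to 4 when single ovaries were left out, and 1 where an absolute log2 fold change over 1 was required. It was 0 without both oviduct-high ovaries (edgeR, with 4 of the 7 at an unadjusted p under 0.05). The share of all genes at that unadjusted p was not counted for this fit, so the 4 are a description only. Over all genes the count of 1372 became 2420 with DESeq2, 648 with the fold threshold, 320 to 1282 with single ovaries left out and 304 without both oviduct-high ovaries. Fewer ovaries enter those last fits. Scaling by library size alone moved the median log2 fold change of all genes from 0.018 to 0.118 and the share of calls that were lower from 59.3% to 35.6%. The class II genes kept their sign under it, with a median of -0.56.

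Signs turned for genes that did not pass. With single ovaries left out, the log2 fold change ranged from -0.10 to 0.26 for Bnc1, -0.038 to 0.074 for Brd2, -0.27 to 0.28 for Cd79a, -0.012 to 0.48 for H2-Oa, -0.36 to 1.21 for H2-Ob, -0.14 to 0.068 for Itgax and -0.41 to 0.089 for Psmb9. Without both oviduct-high ovaries it was -0.10 for H2-Ob, 0.026 for Itgax and 0.15 for Psmb9, and with library size alone 0.092 for Itgax. The cause was not tested. No paired analysis was possible because the genotypes share only the replicate number 1 and the labels pair no ovaries. Depth limits the low genes: Ciita and the chains of H2-O rest on 8 to 190 counts a library.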
